A study of Mus musculus with 12 samples.

Results

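Constant single-gene promoter regions are the stretches of the mouse genome at which every mouse of the study had an H4K12ac peak and at which the start of only 1 protein-coding gene lies nearby. Overlapping peaks on the 19 autosomes were merged over the 10 H4K12ac peak lists, which gave 256014 regions, of which 23689 held a peak in all 10 lists. A region was kept when it overlapped the window of 2 kb on either side of the TSS (the annotated 5′ end of the gene) of exactly 1 protein-coding gene and of no lncRNA gene. This left 6644 regions, 2.60% of all merged regions and 28.05% of those in all 10 lists, at 5965 of 20807 autosomal protein-coding genes. The other regions in all lists were 12738 distal regions, which overlap no such window, and 4307 promoter regions shared by several genes or belonging to genes of other kinds. The regions were thus chosen by measured values, the presence of a peak in all 10 lists, and their presence is a description and was not tested.

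The peak lists come from neuronal nuclei, sorted by FACS from whole hippocampi 10 days after tamoxifen had last been given. Mice labelled *Tip60* cKO (5 mice) carried 2 floxed copies of *Tip60* together with the tamoxifen-inducible CaMKCreERT2 driver, and control mice (5 mice) carried the floxed copies without the driver. Both genotypes received tamoxifen, and the labels give an age of 3 months, male sex and the strain C57BL/6J, where the study's methods name either sex and a C57BL/6 N background. The driver acts in postmitotic excitatory neurons of the forebrain, so inhibitory neurons in the sort keep TIP60, and so do glial cells and progenitors. At the targeted gene, *Kat5*, the peak lists cannot show how much of the floxed segment was lost. The sort holds neurons that keep TIP60, and a member has a peak in all 10 lists by the rule. The floxed segment held a H4K12ac summit in all 5 lists labelled *Tip60* cKO, at 73.9% of the control level. By staining, the study reports effective deletion of TIP60 in the principal layers except CA2, and lower H4K12ac in TIP60-deficient nuclei. The share of sorted nuclei that had lost the segment was not measured here, and the mice are therefore named by their labels throughout. Input chromatin was pooled into 1 library per genotype, so a difference between the inputs and a difference between the genotypes cannot be told apart. The lists rest on 22864189 to 37923809 tags per library and hold 64245 to 136409 peaks. The shallowest library, *Tip60* cKO 5, gave the shortest list. The names of the deposited lists, but no label, place replicates 1 to 3 of each genotype on lane 7 and the other 2 on lane 8.

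TIP60, encoded by *Kat5*, is the catalytic subunit of a large acetyltransferase complex that acetylates histones H4, H2A and H2A.Z, and lysine 12 of H4 is among its substrates. Acetylation of H4 tails loosens the contact between neighbouring nucleosomes and is read by bromodomain proteins. At the promoters of active genes the TSS itself lies in a nucleosome-depleted gap, and the acetylated nucleosomes flank it, with the first nucleosome inside the transcribed part strongly marked. Most such promoters in mammals lie in CpG islands, which are rich in G, C and undepleted of CpG, whereas promoters of tissue-specific genes more often carry a TATA box and few CpGs.

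Promoter sequences are printed for the members on which the following results turn. Each covers the 250 bases from 220 bases before to 29 bases after the annotated TSS, written 5′ to 3′ on the strand of the gene, and was read from the RefSeq copy of GRCm38.p6. Capitals mark matches to short promoter motifs, searched on both strands and spelled out below. The 2 members with the highest H4K12ac level come first:
*Tmem181a*, chr17:6256640-6256889, plus strand: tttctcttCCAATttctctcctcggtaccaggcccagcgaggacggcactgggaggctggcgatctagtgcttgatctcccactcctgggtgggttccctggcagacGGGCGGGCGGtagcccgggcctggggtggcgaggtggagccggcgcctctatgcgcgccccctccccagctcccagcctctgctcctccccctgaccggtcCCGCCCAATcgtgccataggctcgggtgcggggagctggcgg
*Mettl24*, chr10:40683062-40683311, plus strand: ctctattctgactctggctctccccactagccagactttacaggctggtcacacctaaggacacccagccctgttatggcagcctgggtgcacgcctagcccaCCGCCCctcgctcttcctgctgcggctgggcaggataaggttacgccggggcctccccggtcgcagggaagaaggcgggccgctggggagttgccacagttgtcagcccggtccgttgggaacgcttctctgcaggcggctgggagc
The 2 members that were lower in mice labelled *Tip60* cKO by the limma test were these:
*Dexi*, chr16:10543025-10543274, minus strand: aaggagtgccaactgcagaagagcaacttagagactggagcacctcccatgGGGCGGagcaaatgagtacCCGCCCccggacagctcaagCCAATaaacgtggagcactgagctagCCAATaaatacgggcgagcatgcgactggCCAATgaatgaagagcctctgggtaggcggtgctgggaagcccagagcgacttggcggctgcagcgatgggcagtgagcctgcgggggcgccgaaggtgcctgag
*Ankrd12*, chr17:66077060-66077309, minus strand: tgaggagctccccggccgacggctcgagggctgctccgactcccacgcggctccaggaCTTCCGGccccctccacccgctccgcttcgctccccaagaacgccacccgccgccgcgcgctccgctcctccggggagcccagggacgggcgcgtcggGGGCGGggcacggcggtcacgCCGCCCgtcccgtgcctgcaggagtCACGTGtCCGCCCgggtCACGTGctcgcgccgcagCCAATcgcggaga
The 2 members that were higher, besides those at *Arsi* and *Camk2a*, were these:
*Shisa2*, chr14:59625088-59625337, plus strand: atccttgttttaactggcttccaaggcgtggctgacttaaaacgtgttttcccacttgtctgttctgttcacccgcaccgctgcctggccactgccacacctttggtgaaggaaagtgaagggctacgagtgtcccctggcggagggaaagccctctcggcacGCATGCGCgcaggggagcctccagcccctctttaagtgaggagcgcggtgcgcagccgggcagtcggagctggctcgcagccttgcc
*Hnrnpc*, chr14:52103999-52104248, minus strand: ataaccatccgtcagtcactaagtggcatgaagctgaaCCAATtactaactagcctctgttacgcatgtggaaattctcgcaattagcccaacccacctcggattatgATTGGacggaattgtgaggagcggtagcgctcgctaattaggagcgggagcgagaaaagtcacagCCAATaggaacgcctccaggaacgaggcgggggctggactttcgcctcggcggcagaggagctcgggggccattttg
The last 2 are another of the 10 highest members with a CpG-poor promoter and a member with the letters TATAAA:
*Casd1*, chr6:4600619-4600868, plus strand: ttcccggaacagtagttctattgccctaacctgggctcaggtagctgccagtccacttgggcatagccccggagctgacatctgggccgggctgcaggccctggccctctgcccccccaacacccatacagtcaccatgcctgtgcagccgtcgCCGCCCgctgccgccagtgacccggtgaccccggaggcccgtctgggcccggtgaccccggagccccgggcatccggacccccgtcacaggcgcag
*Hivep2*, chr10:13965855-13966104, plus strand: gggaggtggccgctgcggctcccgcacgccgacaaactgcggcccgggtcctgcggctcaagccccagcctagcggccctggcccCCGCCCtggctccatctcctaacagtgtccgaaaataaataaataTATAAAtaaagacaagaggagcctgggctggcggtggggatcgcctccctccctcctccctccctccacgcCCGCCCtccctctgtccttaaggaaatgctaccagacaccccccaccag

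Base composition was not used in the choice of the regions and set the member genes apart in these windows. The median GC content was 61.2% for the 5965 member genes, 55.6% for all 20807 autosomal coding genes and 46.0% for the 6831 coding genes without a peak of any list within 2 kb of the TSS. The ratio of observed to expected CpGs had medians of 0.744, 0.538 and 0.170 in the same order. A window was called CpG-rich at a GC content of at least 50% and a CpG ratio of at least 0.6, which held for 3911 member genes (65.6%), for 42.4% of all coding genes and for 5.68% of those without a peak. In the sequences above *Ankrd12*, with a GC content of 77.2% and a CpG ratio of 1.06, is CpG-rich, whereas *Mettl24*, with a CpG ratio of 0.528, and *Casd1*, with 0.571, are not.

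Motif letters were counted on both strands of the same windows, as a description of the letters and not of bound factors. The GC box GGGCGG (reverse CCGCCC) was found at 61.1% of member genes, at 41.7% of all coding genes and at 11.6% of genes without a peak. The TATA box TATAAA (reverse TTTATA) showed the opposite order, with 5.62%, 10.9% and 20.5%. Restricted to the gene's own strand and to positions −40 to −16, where the TATA box of a promoter is found, the shares were 0.905%, 2.47% and 5.34%, and the match at *Hivep2* lies outside this stretch, at −90. The ETS core CCGGAAG (reverse CTTCCGG) was found at 13.3% of member genes and 10.1% of all, the E-box CACGTG at 9.22% and 7.002%, and the NRF1 core GCATGCGC (reverse GCGCATGC) at 4.78% and 3.15%. The cAMP response element TGACGTCA, known from activity-regulated neuronal genes, was held by 3.05% of member genes and 2.31% of all coding genes, and the YY1 core AAGATGGC (reverse GCCATCTT) by 2.43% and 2.08%. The CCAAT box (reverse ATTGG) was at 31.5% and 35.1%, and the AP-1 site TGAGTCA (reverse TGACTCA) at 2.72% and 3.797%. *Dexi* holds 3 CCAAT boxes, at −130, −104 and −75 from the TSS, *Hnrnpc* holds 3 as well, and *Ankrd12* holds 2 E-boxes at −18 and −1. Matches may overlap, as the CCAAT box and the GC box before the TSS of *Tmem181a* do.

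The regions were described by their length and by their place relative to the TSS. Their median length was 1379.5 bp, with quartiles at 943.75 and 1943 bp and extremes of 334 and 27450 bp. Of the 6644 regions, 4357 (65.6%) lay over the TSS, 1505 (22.7%) lay wholly downstream of it and 782 (11.8%) wholly upstream. Regions over the TSS were longer, with a median of 1592 bp, than those downstream (979 bp) and upstream (990 bp). A single region was found at 5301 genes, 2 at 649 genes and 3 at 15 genes. At 222 of the genes with 2 regions, 1 lay upstream and 1 downstream with the TSS between them, and the 2 regions of a gene were separated by a median of 159 bp (quartiles 90 and 298 bp). The share of coding genes with a member was between 24.1% and 35.3% on 18 of the 19 autosomes. On chromosome 7 it was 18.3%.

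Around the TSSs of the member genes the peaks left a dip just before the TSS. In control mice 54.5 ± 4.35% of the member genes (SD, n = 5) lay under a peak at −300 bp, 47.0 ± 3.98% at −100 bp and 87.0 ± 2.05% at +200 bp. In mice labelled *Tip60* cKO the shares were 45 ± 8.15%, 38.3 ± 7.57% and 80.3 ± 6.49%. At +1000 bp the cover had fallen to 31.6 ± 3.93% in controls and to 23.3 ± 5.54% in mice labelled *Tip60* cKO, against 13.1 ± 2.41% and 9.08 ± 2.90% at −1000 bp. The cover of both genotypes therefore reached further into the gene than away from it, and it was lower in mice labelled *Tip60* cKO at each of these positions. Cover depends on how many peaks pass the threshold and was not tested position by position.

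**Figure D1:**
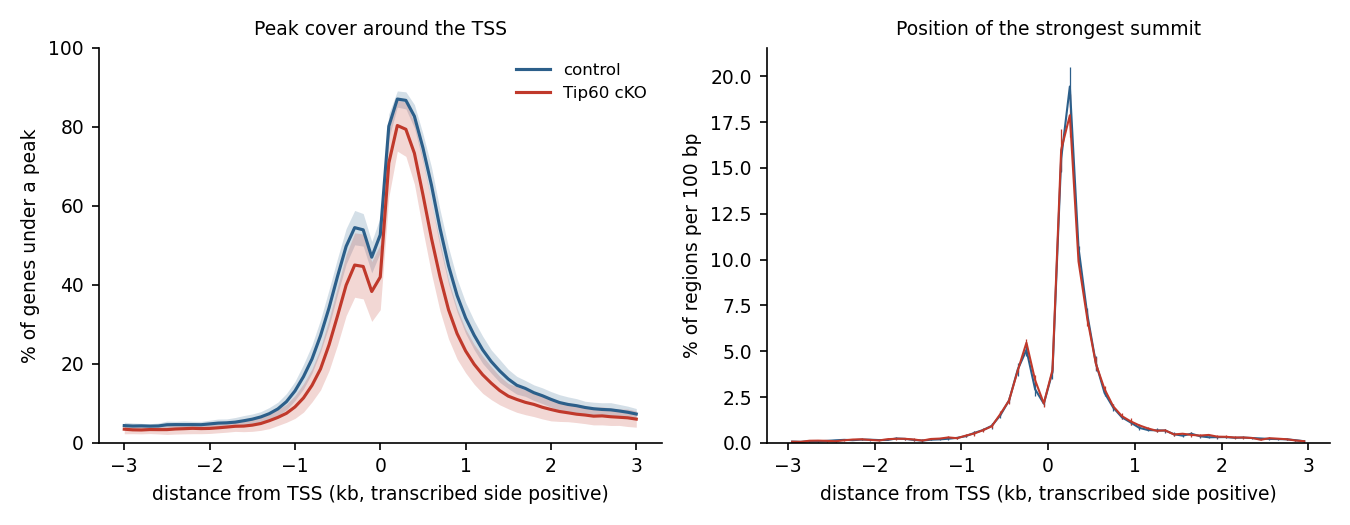
Left, percent of the 5965 member genes that lie under an H4K12ac peak at each distance from the TSS (kb), as the mean of 5 mice per genotype with the SD as a band. Right, percent of the 6644 regions with their strongest summit in each 100 bp bin (mean, bars SD); both genotypes have their main summit 100 to 300 bp inside the gene and a smaller one upstream, with 87.0% of control genes and 80.3% of *Tip60* cKO genes covered at +200 bp.

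The strongest summit of a region lay mostly just inside the gene. The fullest bin, from 200 to 300 bp downstream, held 19.4 ± 1.09% of summits for controls against 17.9 ± 1.19% for *Tip60* cKO (SD, n = 5), and the bin from −100 bp to the TSS held 2.14 ± 0.118% and 2.15 ± 0.2012%. The median summit lay at 227 ± 3.21 bp in controls and at 221 ± 4.87 bp in mice labelled *Tip60* cKO. A summit downstream of the TSS was found at 76.5, 77.1, 76.5, 76.0 and 74.0% of the regions in control mice 1 to 5, and at 75.7, 74.5, 74.9, 75.4 and 74.3% in mice labelled *Tip60* cKO 1 to 5. The ranges overlapped through control 5, and the difference of −1.08 percentage points did not pass the test (two-sided exact permutation test, p = 0.103, n = 5 each, adjusted p = 0.103 over 4 comparisons). Without control 5 it was −1.57 percentage points with an adjusted p of 0.0212 by the same exact test. For 4815 regions (72.5%) the summit lay on the same side of the TSS in all 10 libraries, although its position within a region varied by a median of 433 bp between the libraries.

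The level of a region is the height of its strongest summit, that is the number of overlapping fragments there, per 1000000 tags of the library (RPM). Summits were low in number of fragments. The median region had a mean height of 26.8 fragments, 1 in 10 regions stayed at or below 19.8 and 1 in 10 reached 35.9 or more, and single values ran from 8 to 85. The spread between mice of a genotype, which includes counting error, had a median SD of 0.21 on the log2 scale in controls and 0.22 in mice labelled *Tip60* cKO after centring. Correlations of the levels between pairs of libraries (45 pairs, across the 6644 regions, which are not independent) ran from 0.528 to 0.751. Longer regions had higher summits. The level is the maximum over a region's peaks and the length is their joined extent, so these measures are not independent. The median height was 0.724 RPM for regions of up to 943 bp, 0.765 RPM from 944 to 1379 bp, 0.839 RPM from 1380 to 1943 bp and 0.929 RPM for longer ones, each class holding 1660 to 1662 regions. Regions over the TSS had a median of 0.847 RPM, those downstream 0.755 and those upstream 0.709.

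Within each mouse the members were higher than the constant distal regions. The difference of the medians on the log2 scale was 0.28 ± 0.08 (SD, n = 10 mice) and was positive in 10 of 10 mice (exact sign-flip test, two-sided, p = 0.00195, the smallest that 10 mice can give). CpG-rich member genes were slightly higher than CpG-poor ones, by 0.05 ± 0.04 on the log2 scale (exact sign-flip test, p = 0.0156, n = 10), with a higher median in 7 of 10 mice and equal medians in the other 3. Since heights are whole numbers, medians tie, and with means in place of medians CpG-rich genes were higher in 10 of 10 mice by 0.05 ± 0.03 (exact sign-flip test, p = 0.00195). The size of this difference was 0.07 ± 0.04 in controls and 0.03 ± 0.03 in mice labelled *Tip60* cKO by medians (exact permutation test, p = 0.167, n = 5 each), and 0.07 ± 0.03 and 0.03 ± 0.03 by means (p = 0.0556, same exact test). Of the single motifs, the largest differences in median level went with the TATA box in its place (−0.08 ± 0.06, 54 genes, higher in 1 of 10 mice), the YY1 core (0.06 ± 0.04, 145 genes, higher in 8 of 10) and the AP-1 site (0.05 ± 0.03, 162 genes, higher in 9 of 10). All of these are small beside the spread between regions.

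Among the highest members were those at *Tmem181a*, *Mettl24*, *Arsi*, *Nsd1*, *Casd1*, *Efcab2*, *Phf10*, *Nalcn* and *Chd3*, with mean levels from 1.82 down to 1.52 RPM, against a median of 0.806 over all members. These means are over both genotypes, and *Arsi* stood at 2.15 RPM in mice labelled *Tip60* cKO but at 1.26 in controls, below members such as *Psma3* (1.36) and *Vamp2* (1.52), with an input background of 2.18 and 1.07 times the genome-wide level. *Tmem181a*, a gene with near copies annotated as pseudogenes, reached 1.77 to 2.13 RPM in controls and 1.41 to 2.03 in mice labelled *Tip60* cKO over chr17:6256337-6258238. Its input background was 1.77 and 1.63 times the genome-wide level, and the part of reads from the copies was not tested. *Nsd1* encodes a methyltransferase of H3 lysine 36, *Phf10* a subunit of the BAF remodelling complex and *Chd3* a helicase of the NuRD complex. *Nalcn*, the sodium leak channel of neurons, stood at 1.36 to 1.80 in controls and 1.38 to 1.51 in mice labelled *Tip60* cKO. The lowest members lay at *Epb41l3*, *Fzd9* (a Wnt receptor), *Plin3* (a lipid droplet protein), *Arl13b* (a GTPase of cilia) and *Senp7* (a SUMO protease), with means of 0.451 to 0.468 RPM.

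The longest regions lay at *Coro2b*, an actin-binding coronin (chr9:62518327-62545776, 27450 bp), at *Camk2a* (22330 bp), *Srcin1*, a synaptic inhibitor of SRC (12589 bp), *G430095P16Rik* (11400 bp) and *Klf16*, a zinc finger factor (11038 bp). The *Coro2b* region stood at 1.39 to 1.83 RPM in controls and 1.08 to 1.79 in mice labelled *Tip60* cKO, with overlapping ranges. At *Klf16* and *G430095P16Rik* the strongest summit lay 5988 bp downstream and at −6892 bp from the TSS (upstream), so the flanks of these long regions reach the promoter window. The most even regions between mice were those at *Rora*, a nuclear receptor, *Neurl1b*, *Kndc1*, *Xrn2*, an RNA exonuclease, and *Ank*, with SDs of 0.07 on the log2 scale within genotypes. The least even were at *Rpsa*, *Calhm6*, *Prdx6*, *Mbtps1* and *B3gntl1*, with SDs of 0.46 to 0.48, and *Rpsa*, a ribosomal protein gene, ranged from 0.474 to 1.63 RPM among control mice.

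H4K12ac at these promoters as a whole was lower in mice labelled *Tip60* cKO. The median level of the members on the log2 scale of height in RPM was −0.12, −0.09, −0.08, −0.19 and −0.25 in control mice 1 to 5, and −0.41, −0.62, −0.32, −0.40 and −0.43 in mice labelled *Tip60* cKO 1 to 5. Every mouse labelled *Tip60* cKO lay below every control, with *Tip60* cKO 2 the lowest, and the difference of −0.29 corresponds to a change of −18.2% (two-sided exact permutation test, p = 0.00794, the smallest that 5 against 5 mice can give, adjusted p = 0.0317 over 4 comparisons). Within lane 7 the difference was −0.35 and within lane 8 it was −0.19, where the exact test cannot go below 0.1 and 0.333. The constant distal regions differed in the same direction by −0.17 (−0.65 ± 0.11 against −0.48 ± 0.03, SD, n = 5 each, exact permutation test, p = 0.0159), and all constant regions together by −0.22. Height in RPM also depends on the fragment length, which averaged 204 ± 7.19 bp for controls against 195 ± 12.2 bp for *Tip60* cKO, and on the efficiency of the immunoprecipitation, whose part was not tested. Relative to the coverage expected from tags and fragment length together, the members' difference was −0.22 (exact permutation test, p = 0.00794).

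**Figure D2:**
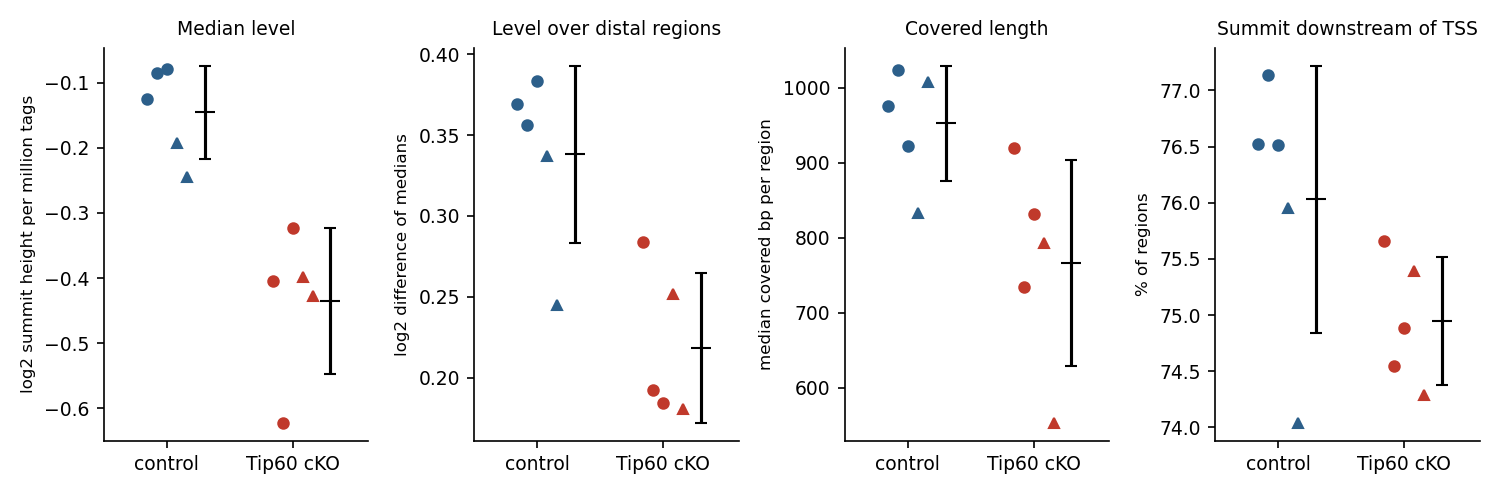
Values of single mice over the 6644 regions by genotype (circles lane 7, triangles lane 8, bars mean ± SD, n = 5): median log2 summit height in RPM, that median minus the median of constant distal regions, median covered length per region (bp), and percent of regions with the strongest summit downstream of the TSS. The groups do not overlap in the level (−0.62 to −0.32 against −0.25 to −0.08) and overlap in the other 3 measures.

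The promoters stood less far above the distal regions in mice labelled *Tip60* cKO than in controls. This difference, taken within each library, was 0.37, 0.36, 0.38, 0.34 and 0.25 in control mice 1 to 5 and 0.28, 0.19, 0.18, 0.25 and 0.18 in mice labelled *Tip60* cKO 1 to 5. Control 5 lay below *Tip60* cKO 1 and 4, and the other mice were separated. The difference between the genotypes was −0.12 on the log2 scale, or −7.95% (two-sided exact permutation test, p = 0.0238, n = 5 each, adjusted p = 0.0317 over 4 comparisons). Without *Tip60* cKO 5 or any 1 of controls 1 to 4 it was between −0.12 and −0.11 with an adjusted p of 0.0529 by the same exact test, and with every list cut to an equal number of peaks it was −0.07 with an adjusted p of 0.0529. Within lane 7 it was −0.15 and within lane 8 it was −0.08.

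The median length covered by peaks in a member region was also lower in mice labelled *Tip60* cKO. The median covered length was 975.5, 1024, 922, 833 and 1007 bp in control mice 1 to 5 and 919.5, 734, 831, 793 and 553 bp in mice labelled *Tip60* cKO 1 to 5. The ranges overlapped, since control 4 lay below *Tip60* cKO 1, and the difference was −186 bp (exact permutation test, p = 0.0159, n = 5 each, adjusted p = 0.0317). *Tip60* cKO 5, the shallowest library, was lowest, and the part of depth was not tested. Without it the difference was −133 bp with an adjusted p of 0.0529, and with every list cut to an equal number of peaks it was −198 bp with the same exact test still passed. Without any 1 of controls 1 to 3 it was −194 to −168 bp, also with an adjusted p of 0.0529. The constant distal regions differed in covered length by −196 bp, from 1026 ± 147 to 830 ± 220 bp (SD, n = 5 each, exact permutation test, p = 0.135). The members were covered by more than 1 separate peak at 34.6 ± 2.51% of regions in controls against 38.4 ± 3.57% in lists labelled *Tip60* cKO (SD, n = 5).

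Single regions were then compared with limma on log2 height in RPM after subtraction of each library's median over all 23689 constant regions, with Benjamini-Hochberg adjustment over all of these. This centring removes the shared shift of −0.22, so a difference of a region is relative to it. Of the 6644 members, 2 (0.0301%) were lower in mice labelled *Tip60* cKO and 5 (0.0753%) were higher at an adjusted p below 0.05. Among all constant regions the shares were 0.00844% lower and 0.076% higher. At an unadjusted p below 0.05, 567 members (8.53%) were lower and 238 (3.58%) higher, against 5.12% and 5.43% of all constant regions. Without the centring, 1153 members (17.4%) were lower and 4 (0.0602%) higher at the same adjusted threshold, against 11% and 0.0675% of all constant regions. The members' differences had a median of −0.05 (quartiles −0.17 and 0.07), against 0.00 over all constant regions and 0.04 for the distal ones, and 61.8% of the members were below 0, against 49.6% of all constant regions. All 5 libraries labelled *Tip60* cKO lay below all 5 controls at 87 members (1.31%, against 0.865% of all constant regions) and above them at 37 (0.557%, against 1.08%). By unadjusted p and by separation of the libraries, the members' share was above that of all constant regions on the lower side. On the higher side it was below. Of the 23689 regions used for centring 12738 are distal, so these shares in part restate the members' difference relative to distal regions. In simulated data with 200 of 23689 regions changed, limma recovered 13% of changes of 0.5 on the log2 scale and 96.5% of changes of 1, so most changes of single promoters of 0.5 or less could not be called.

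**Figure D3:**
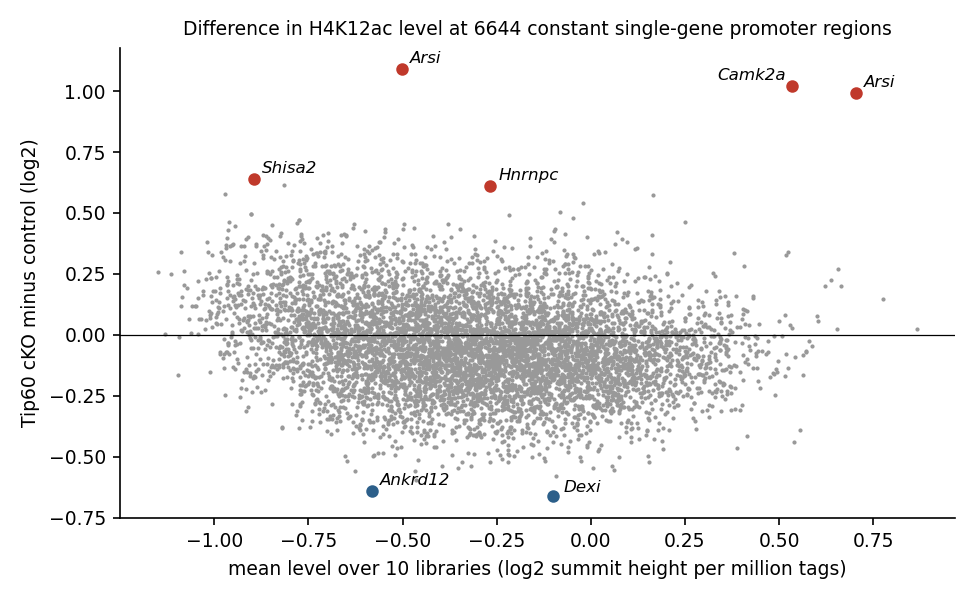
Difference of each of the 6644 regions between *Tip60* cKO and control mice (log2, centred on each library's median over all constant regions) against its mean level (log2 summit height in RPM). Grey points did not pass the limma threshold; the 2 lower regions (blue, *Dexi* and *Ankrd12*) and 5 higher regions (red) are named, and the 3 highest lie side by side at *Arsi* and *Camk2a*.

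*Dexi* and *Ankrd12* were the members that were lower past the threshold relative to the shared shift. Levels of single regions are given as multiples of the library's median constant region. The *Dexi* region (chr16:10541645-10543076, over the TSS) stood at 1.26, 1.93, 1.96, 1.57 and 1.48 in control mice 1 to 5 and at 1.08, 1.09, 1.09, 0.818 and 1.06 in mice labelled *Tip60* cKO 1 to 5. All mice labelled *Tip60* cKO lay below all controls, with *Tip60* cKO 4 apart from the other 4, and the difference was −0.66 ± 0.14 (log2, SE, limma, adjusted p = 0.0354). The *Ankrd12* region (chr17:66076027-66077050, starting 39 bp inside the gene), at a gene for an ankyrin repeat protein, stood at 1.15, 1.41, 1.20, 0.857 and 1.21 in controls and at 0.840, 0.773, 0.696, 0.773 and 0.625 in mice labelled *Tip60* cKO. These groups did not overlap either, and the difference was −0.64 ± 0.14 (adjusted p = 0.0462). The input background at both was between 1.0 and 1.06 times the genome-wide level in both genotypes. Both calls were near the threshold. That of *Dexi* was kept without control 1 and lost without any 1 of the other 9 libraries (limma, −0.75 to −0.58, adjusted p up to 0.172), and that of *Ankrd12* was kept without control 4 and lost without any other (−0.75 to −0.57, adjusted p up to 0.198).

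The next regions on the lower side did not pass by height after centring. They lay at *Ints3*, a subunit of the Integrator complex (difference −0.58 ± 0.13, log2, SE, adjusted p = 0.0697 by limma), at *Fzr1*, an activator of the anaphase-promoting complex (−0.59 ± 0.14, 0.0812), and at *Man1c1*, a Golgi mannosidase (−0.56 ± 0.14, 0.133). *Mink1*, a kinase, had −0.55 ± 0.14 (0.134) and *Iqcc* −0.55 ± 0.14 (0.136). At *Ints3* the control mice stood at 1.30 to 1.76 times the library median and the mice labelled *Tip60* cKO at 0.955 to 1.17, without overlap. At *Man1c1* the groups overlapped through control 5. All 5 passed by fold enrichment (−0.68 to −0.53, limma, adjusted p from 0.00701 to 0.0302), as did 2.41% of all members on the lower side. These p-values do not hold the error of the 1 input library per genotype. All 5 also passed by height without centring (−0.81 to −0.76, adjusted p from 0.00146 to 0.0032), which adds the shared shift of −0.22 to every region. In that way 17.4% of all members passed on the lower side, so it is no separate support.

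Outside chromosome 18, *Shisa2* and *Hnrnpc* were the members that were higher past the threshold relative to the shared shift. The region of *Shisa2*, a gene for an endoplasmic reticulum protein that restrains Wnt and FGF receptors, lay over the TSS (chr14:59625246-59626674). It stood at 0.667, 0.593, 0.480, 0.667 and 0.586 times the library median in control mice 1 to 5 and at 0.960, 0.864, 0.957, 0.909 and 0.938 in mice labelled *Tip60* cKO, without overlap (difference 0.64 ± 0.13, log2, SE, limma, adjusted p = 0.0318). The region of *Hnrnpc*, which encodes an RNA-binding protein of nascent transcripts, lay 378 bp upstream of the TSS (chr14:52104406-52104994). It stood at 0.778, 0.815, 1.04, 1.0 and 1.03 in controls and at 1.28, 1.41, 1.48, 1.55 and 1.38 in mice labelled *Tip60* cKO, again without overlap (0.61 ± 0.13, adjusted p = 0.0462). The call of *Shisa2* was kept without control 1 or control 4 and lost without any 1 of the other 8 libraries (0.56 to 0.68, adjusted p up to 0.127), and that of *Hnrnpc* was lost without any 1 of the 10 (0.55 to 0.65, adjusted p up to 0.197). Both are relative to the shared shift. Without centring *Shisa2* had a difference of 0.42 (adjusted p = 0.0493) and *Hnrnpc* of 0.39 (adjusted p = 0.0618). *Sox5*, a transcription factor, followed with 0.61 ± 0.14 (adjusted p = 0.0529), then *Ctsz*, a lysosomal protease, with 0.58 ± 0.14 (0.122), *0610009B22Rik* with 0.57 ± 0.15 (0.162), *Trdmt1*, a tRNA methyltransferase, with 0.54 ± 0.14 (0.162) and *Tnfaip8l3* with 0.50 ± 0.14 (0.172), none of which passed by height after centring. By fold enrichment *Sox5* (0.62, limma, adjusted p = 0.0217), *0610009B22Rik* (0.58, 0.0188) and *Trdmt1* (0.74, 0.0102) passed, as did 1.01% of all members on the higher side. *Ctsz* (0.46, 0.0751) and *Tnfaip8l3* (0.49, 0.0574) did not. These p-values do not hold the error of the 1 input library per genotype. By height without centring none of these regions passed (limma, adjusted p from 0.0599 to 0.174).

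**Figure D4:**
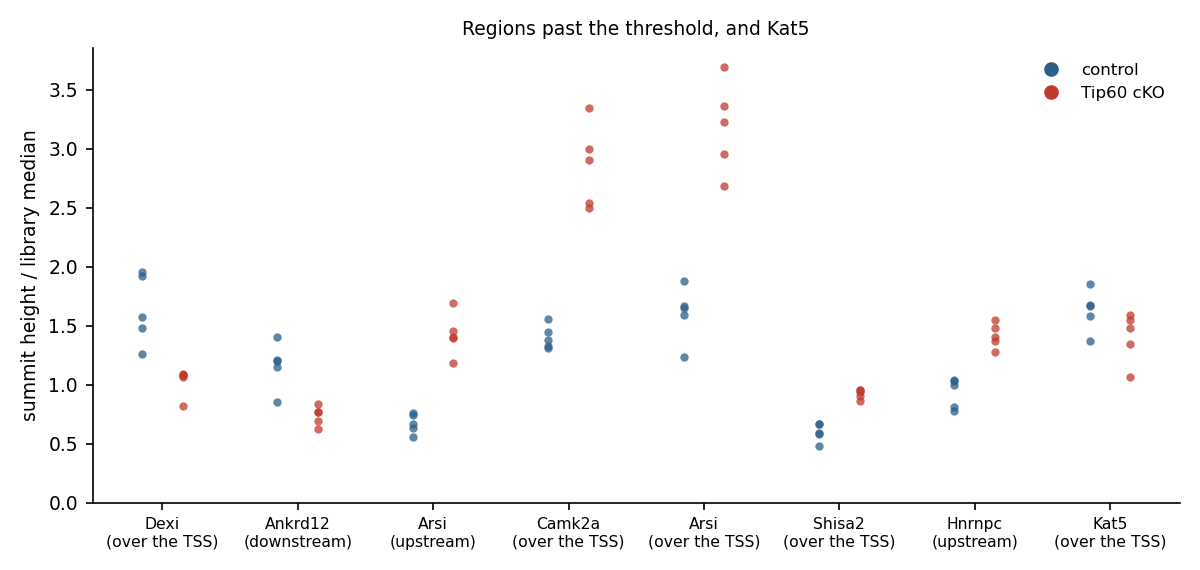
Summit height of the 7 regions past the limma threshold and of *Kat5*, as a multiple of the library's median constant region (1 point per mouse, 5 control mice in blue and 5 mice labelled *Tip60* cKO in red). The genotypes do not overlap at the 7 regions, with *Arsi* over the TSS at 2.69 to 3.70 in mice labelled *Tip60* cKO against 1.24 to 1.88 in controls, and they overlap at *Kat5*.

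The other 3 members that were higher lie side by side on chromosome 18, at *Arsi*, which encodes arylsulfatase I, and at *Camk2a*, which encodes the alpha subunit of calcium/calmodulin-dependent kinase II of excitatory neurons. The *Camk2a* region (chr18:60914756-60937085) stood at 1.44, 1.33, 1.56, 1.38 and 1.31 times the library median in control mice 1 to 5 and at 3.00, 2.91, 3.35, 2.55 and 2.50 in mice labelled *Tip60* cKO (1.02 ± 0.13, log2, SE, limma, adjusted p = 3.45e-06). The *Arsi* region over the TSS (chr18:60911130-60912767) had a difference of 0.99 ± 0.14 (adjusted p = 1.63e-05) and the *Arsi* region upstream (chr18:60908827-60910646) of 1.09 ± 0.14 (adjusted p = 1.36e-06), also without overlap. These calls were kept without any 1 of the 10 libraries. They belong to a stretch of 92.1 kb, chr18:60886356-60978464, in which all 10 constant regions were higher, by 0.92 to 1.5, and which holds 10 of the 18 higher regions among all constant regions.

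The input of the mice labelled *Tip60* cKO was also higher in this stretch. At the *Camk2a* region the input background was 2.97 times the genome-wide level in the lists labelled *Tip60* cKO against 1.49 times in controls, at *Arsi* over the TSS 2.18 and 1.07 times, and upstream of *Arsi* 2.65 and 1.31 times. Over the 10 regions the background differed by 0.59 to 1.6 on the log2 scale. Expressed as fold enrichment over this background, the difference was −0.13 at *Camk2a* (limma, adjusted p = 0.635), 0.02 at *Arsi* over the TSS (0.959) and 0.06 upstream of *Arsi* (0.862). Over the 10 regions it ran from −0.24 to 0.58, the highest at 2 regions that are not members (0.58 and 0.50). The input is not immunoprecipitated. The CaMKCreERT2 driver, named for the same gene, is carried by the mice labelled *Tip60* cKO alone, and its part in these values was not tested.

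**Figure D5:**
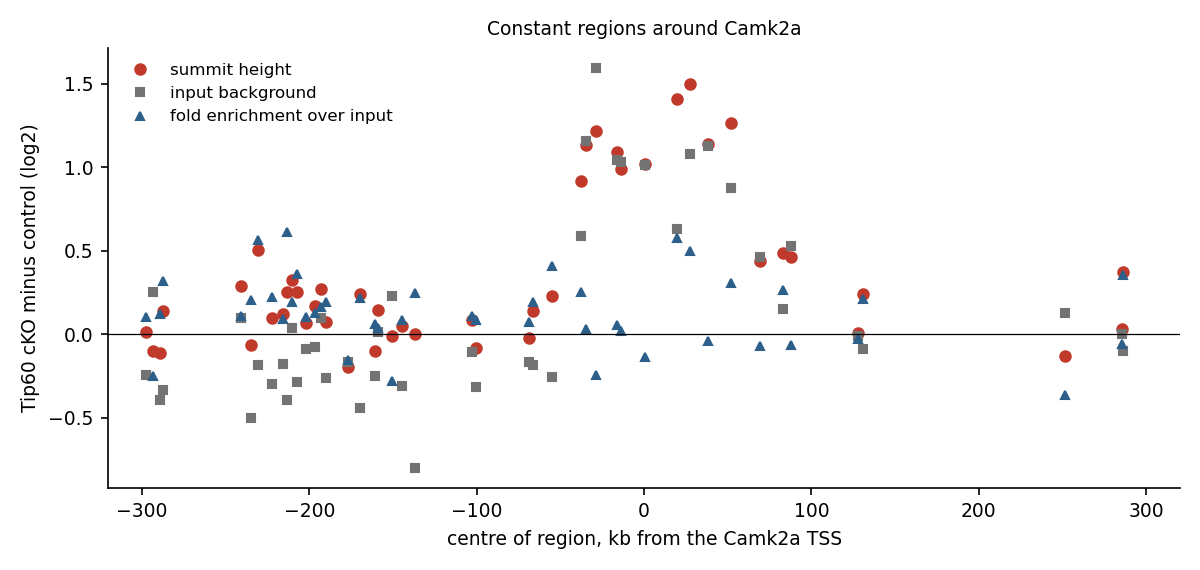
Difference between *Tip60* cKO and control mice (log2) at the constant regions on either side of *Camk2a*, by the distance of their centre from the *Camk2a* TSS (kb): summit height (red circles), input background (grey squares) and fold enrichment over it (blue triangles). Height is raised by 0.92 to 1.5 in the 92.1 kb stretch around the gene, where the input background is raised by 0.59 to 1.6.

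Fold enrichment over the input gave more calls among the members than height did. With it, 160 members (2.41%) were lower and 67 (1.01%) higher in mice labelled *Tip60* cKO at an adjusted p below 0.05 by limma, against 1.55% lower and 1.67% higher among all constant regions, and 3 members passed by both measures. The 160 lower members had a median difference of −0.59 in fold enrichment and of −0.33 in height, and their input background differed by 0.24. The 67 higher members had 0.62 in fold enrichment, 0.16 in height and −0.71 in background. The background of the members lay at the genome-wide level in 46.4 ± 2.27% of regions in controls against 71.2 ± 2.36% in lists labelled *Tip60* cKO (mean and SD over the 5 lists), with a median difference of −0.01 (log2) over the members. It was more than 1.5-fold higher in *Tip60* cKO at 32 members, the most at *Cwc22*, a splicing factor gene (2.89 against 1.06 times the genome-wide level), and more than 1.5-fold lower at 161. The 5 lists of a genotype share 1 input library, so their spread does not hold the error of the input, neither here nor in the calls by fold enrichment. Such differences and those of fold enrichment cannot be told apart.

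*Kat5*, the gene targeted in the cKO, is itself a member, and so holds a peak in all 10 lists by the rule. Its region (chr19:5608573-5611025, over the TSS of the gene at 5603014 to 5610237) stood at 1.37, 1.67, 1.68, 1.86 and 1.59 times the library median in control mice 1 to 5 and at 1.48, 1.59, 1.35, 1.55 and 1.06 in mice labelled *Tip60* cKO 1 to 5. The groups overlapped, and the difference of −0.22 ± 0.14 (log2, SE) did not pass (limma, adjusted p = 0.572). Without centring it was −0.44 and passed (adjusted p = 0.0398), as did 17.4% of all members on the lower side. By the study's methods the loxP sites flank the ATG, and the TSS and 85.4% of this region lie between them. The strongest summit lay between them in all 10 lists, with 37, 45, 42, 39 and 46 fragments in control mice 1 to 5 and 37, 35, 31, 34 and 17 in mice labelled *Tip60* cKO 1 to 5. In RPM this was 1.28 ± 0.126 in controls and 0.942 ± 0.115 in mice labelled *Tip60* cKO (SD, n = 5), or 73.9% of the control level, with input backgrounds of 1.04 and 1.03 times the genome-wide level. The background has the genome-wide level as its floor, so it could not show a loss of the segment. The share of sorted nuclei that had lost the segment was not measured here, and the cause of this level was not tested. By staining of the principal layers, the study reports effective deletion except in CA2. Of 17 genes of the TIP60 complex, 14 had a constant region and 10 a member, with 8 of 11 regions below 0 and a median difference of −0.08. Over all members 61.8% of regions were below 0 and the median was −0.05. *Morf4l1*, a chromodomain subunit, had −0.05 ± 0.13 (adjusted p = 0.923) and *Epc1*, a scaffold subunit, −0.29 ± 0.15 (0.499).

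Lists of genes with known roles were then read against the members, and none of their regions passed the limma test on height after centring. Over the 20 lists, with a gene on 2 lists counted under both, 173 member regions were tested, of which 15 were lower (8.67%) and 5 higher (2.89%) at an unadjusted p below 0.05. These shares lie near the 8.53% and 3.58% of all members. By fold enrichment 4 were lower and 4 higher (2.31% each way) at an adjusted limma p below 0.05, against 2.41% and 1.01% of all members and 1.55% and 1.67% of all constant regions. Of all coding genes 45.3% had a constant region and 28.7% a member. These shares were not tested against those of the lists. Of 14 core subunits of the 20S proteasome, the proteolytic chamber, 11 had a constant region and 6 a member. *Psma3* stood at 1.36 ± 0.163 RPM in controls against 0.989 ± 0.135 in mice labelled *Tip60* cKO (SD, n = 5), a difference after centring of −0.25 ± 0.13 (limma, adjusted p = 0.520). *Psmb4* had 0.17 ± 0.14 (0.694) and *Psmb5* 0.25 ± 0.14 (0.514). Of 27 core spliceosome genes 22 had a constant region and 12 a member, among them *Snrpb*, *Sf3b1* and *Prpf8*, the last with the smallest p (0.34 ± 0.14, adjusted p = 0.359). Of 7 genes of the chaperonin TRiC 5 had a constant region, and *Cct4* alone of the 7 was a member, with −0.17 ± 0.15 (0.714).

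Genes of the transcription machinery and of other housekeeping complexes followed. Of 13 subunits of RNA polymerase II 7 had a constant region and 3 a member, *Polr2m*, *Polr2c* and *Polr2k*, whose differences were 0.01 ± 0.14, −0.15 ± 0.15 and 0.24 ± 0.14 (limma, adjusted p = 0.986, 0.753 and 0.545). Of 30 genes of Mediator, which links activators to the polymerase, 20 had a constant region and 12 a member, with a median difference of 0.03. *Med13l* and *Med13* were the highest, *Med13* with −0.36 ± 0.15 (adjusted p = 0.355), and *Med28* had the smallest p on the list, with 0.35 ± 0.14 (0.325). Of 26 nuclear pore genes 13 had a member, and *Nup85* had 0.38 ± 0.15 (0.334). Of 20 cytosolic aminoacyl-tRNA synthetases 9 had a member, and *Sars* had −0.36 ± 0.13 (0.306). Of 78 genes of the mitochondrial ribosome 24 had a member, with a median difference of 0.00, and *Mrpl24* had 0.36 ± 0.13 (0.306). Medians of these lists were all between −0.03 and 0.05, apart from that of the single TRiC region.

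Neuronal genes had members at 65.4% of the genes of synaptic vesicle release, 45.8% of receptor genes and 68.2% of immediate early genes. Of 26 genes of vesicle release 24 had a constant region and 17 a member, with 16 of 20 regions below 0 and a median difference of −0.22. Over all members, the comparison for this and the following lists, 61.8% of regions were below 0 and the median was −0.05. *Vamp2*, the vesicle SNARE protein, stood at 1.52 ± 0.187 RPM in controls against 1.11 ± 0.177 in mice labelled *Tip60* cKO (SD, n = 5), with input backgrounds of 1.07 and 1.85 times the genome-wide level and a difference after centring of −0.24 ± 0.14 (limma, adjusted p = 0.528). *Cplx2*, a complexin, had −0.32 ± 0.13 (0.382) and *Rab3a*, a vesicle GTPase, −0.37 ± 0.14 (0.313). None of the 20 regions passed by height after centring. Of them, 4 were lower and 1 was higher at an unadjusted p below 0.05, where 8.53% and 3.58% of all members were. By fold enrichment 2 of the 20 (10%) were lower at an adjusted limma p below 0.05, against 2.41% of all members. Of 24 genes of glutamate and GABA-A receptors 11 had a member, with 9 of 13 regions below 0 and a median of −0.04. The NMDA receptor gene *Grin2a* had −0.14 ± 0.13 (0.753), the GABA-A receptor gene *Gabra2* −0.02 ± 0.14 (0.975) and the AMPA receptor gene *Gria1* −0.29 ± 0.14 (0.464). Of 22 immediate early genes, which neurons switch on with activity, 15 had a member, with 14 of 20 regions below 0 and a median of −0.06. *Nr4a3* had −0.05 ± 0.14 (0.935), *Egr3* −0.12 ± 0.13 (0.779) and *Ier5* −0.50 ± 0.13 (0.166).

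The nuclei were sorted as neuronal, and markers of cell types were read as a check of the label. All 12 neuron markers had a member, with 16 regions, 12 of them below 0, and a median difference of −0.12. Over all members 61.8% of regions were below 0 and the median was −0.05. *Rbfox3*, which encodes the neuronal nuclear antigen NeuN, stood at 1.42 ± 0.177 RPM in controls against 1.18 ± 0.205 in mice labelled *Tip60* cKO (SD, n = 5), with a difference after centring of −0.05 ± 0.13 (limma, adjusted p = 0.923). *Thy1* had −0.19 ± 0.13 (0.621) and *Nrgn*, which encodes neurogranin, −0.36 ± 0.14 (0.330). None of 8 astrocyte, 8 microglia, 6 endothelial and 8 inhibitory neuron markers had a constant region, and 3, 7, 2 and 3 of these had no peak in any list. Of 9 oligodendrocyte markers *Mbp* and *Cnp* had a member, with differences of −0.14 ± 0.13 (0.725) and 0.00 ± 0.13 (0.996). The *Mbp* region lies over the annotated 5′ end of the gene, and other starts were not read for these markers. In chromatin of many nuclei, fewer cells of a type and less acetylation per cell cannot be told apart. Of 30 genes of DNA replication and mitosis 4 had a member, among them *Birc5* (−0.12 ± 0.13, adjusted p = 0.785) and *Cdt1* (−0.13 ± 0.13, 0.756). None of 1128 olfactory receptor genes, which are silent in the hippocampus, had a constant region, and 1116 had no peak in any list.

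By position, the regions wholly downstream of the TSS had a median difference of −0.07, those over the TSS of −0.05 and those upstream of −0.01, with 64.7%, 62.4% and 53.5% of regions below 0. At an unadjusted p below 0.05 of limma, 185 of the 1505 downstream regions were lower (12.3%) and 35 higher (2.33%), 343 of the 4357 regions over the TSS were lower (7.87%) and 154 higher (3.53%), and 39 of the 782 upstream regions were lower (4.99%) and 49 higher (6.27%). Over all constant regions these shares were 5.12% and 5.43%. By length, the median difference was −0.04 for regions of up to 943 bp and −0.08 for those of 1944 bp and more, with 57.1% and 70.1% of regions below 0. Member genes with a CpG-rich promoter had a median of −0.07 and those with a CpG-poor one of −0.03. These medians are descriptions across regions of the same 10 mice, and the differences between them were not tested.

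The choice of the regions sets a limit on what they can show. A promoter whose peak fell below the threshold in a single library is no member, so the loss of a peak is not counted here. Just outside the rule stood 1307 single-gene promoter regions with a peak in 9 of the 10 lists. The missing list was a list labelled *Tip60* cKO at 1052 of them (80.5%), and at 684 (52.3%) it was the shallowest list, of *Tip60* cKO 5. Their median height was 20.2 fragments, against 26.8 for the members, and their median length 853 bp. At the edge of the window, 77 members lay 1800 to 2000 bp from the TSS, with a median height of 23.2 fragments, and 78 distal regions lay up to 2200 bp from a coding TSS, with 22.1. With a window of 1 kb there were 6536 members, with the starts of all transcripts 8836, and with peaks of q below 0.01 there were 6468.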

How the data were processed

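H4K12ac ChIP-Seq was performed by the authors on sorted neuronal nuclei of 5 *Tip60* cKO and 5 control hippocampi. Reads were mapped with STAR to mm10, PCR duplicates were removed with samtools and MACS 2.1.0.20140616 called the peaks of each library, with its genotype's pooled input as background and q < 0.1. In the deposited lists, pileup is a coverage signal and counts the fragments that overlap at a summit. The deposited fold enrichment is its ratio to the local background, with 1 added to both, and the authors' p-values and q-values are given as −log10. No column of fold changes between the genotypes was used.

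Genes and TSSs were taken from GENCODE M21 on GRCm38, the build of the lists, and promoter windows from RefSeq's GRCm38.p6. The background was recovered from pileup and fold enrichment and divided by the genome-wide level, and counted as at that level when at most 1% above it. It does not fall below that level. Depth is the number of tags per library (22864189 to 37923809). Heights are whole numbers of fragments, and precision was taken from the spread between mice.

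Regions were compared with limma 3.58.1 in R 4.3.3 over all 23689 constant regions with Benjamini-Hochberg adjustment. Values per mouse were compared with exact permutation tests over 252 assignments in Python 3.11.15, adjusted over 4 comparisons. P-values measure the spread between the mice named in the labels. The limma step was tested on simulated data of 23689 regions. Named members are the 10 highest and 5 lowest, those past the limma threshold with the 5 nearest to it in each direction, the 5 longest, the 5 most and 5 least variable, up to 3 of each gene list and *Kat5*. One of the highest members is not reported here. *Cwc22* was named after its values were seen. Members, gene lists and named-gene rules were chosen with earlier results of these data known. Of the listed symbols, *Cct6a*, *Nup58* and the X-linked *Syp* were not among the autosomal coding genes of the annotation. The alternatives tried are given in the closing section. Those with means and with expected coverage were added after seeing the data.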

Additional observations from a re-analysis of the deposited data

Results flagged for a closer look

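Single libraries stood apart from the other 4 of their genotype by Dixon's criterion at 3 of 46 groups of 5 values tested, and chance gives about 1 in 20. At *Dexi*, *Tip60* cKO 4 lay at −0.2895 (log2 relative to the library median), against 0.09 to 0.13 in the other mice labelled *Tip60* cKO. At *Mink1*, control 3 lay at 0.9107, against 0.67 to 0.73 in the other controls. At *Sox5*, *Tip60* cKO 3 lay at −0.4361, against 0 to 0.09 in the other mice labelled *Tip60* cKO.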

How the results depend on the processing

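The counts of single regions past the limma threshold were small and moved with the processing, while the differences between mice kept their direction in all alternatives run. Of the members, 2 were lower and 5 higher. The counts were 2 and 3 with the same number of peaks per list, 1 and 5 with a mean-dependent robust prior, 17 and 7 with percent ranks by fold enrichment, 160 and 67 with fold enrichment, and 1153 and 4 without centring. They were 0 and 3 with the mean height over all peaks of a region, with a height of at least 20 in all lists and in lane 7 alone, and 0 and 0 in lane 8 alone. Leaving out 1 library gave 0 to 2 lower and 3 to 5 higher. With the replicate number as a replicate block the counts were 1 and 4, and libraries with the same number did not deviate together (correlations −0.03 to 0.07), so the numbers do not pair the mice.

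The difference relative to distal regions was −0.0738 with the same number of peaks per list, where the call was also lost, and −0.14 to −0.11 when 1 library was left out. That in covered length was −190.3 bp with the 5′ ends of all transcripts, where the call was lost (adjusted p = 0.0529, exact test), and −224.5 to −132.9 bp when 1 library was left out, and the share of downstream summits differed by −1.57 to −0.80 percentage points. In lane 7 alone the level, the level relative to distal regions and the covered length differed by −0.35, −0.15 and −145.7 bp, and in lane 8 alone by −0.19, −0.075 and −247 bp, where the exact test cannot pass. Percent ranks by fold enrichment turned *Arsi* upstream to −4.46 and *Camk2a* to −3.25 percentage points, and fold enrichment turned *Camk2a* to −0.13. The cause was not tested. Heights of 8 to 85 fragments limit single regions.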
